A study of Homo sapiens with 12 samples.

Results

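HepG2, an established human liver tumor cell line, was compared by RNA-seq between cells given siRNA that targets FASRL (siFASRL) and cells given control siRNA (siNC), with 3 replicates in each group. These 6 libraries are all libraries labelled HepG2, out of 12 in the study, and the other 6 come from the liver cancer cell line LM3 with the same 2 treatments. FASRL is a long non-coding RNA that was studied for its part in fatty acid metabolism, and RNA was taken 48 h after transfection. Both groups are the same cell line and differ by the siRNA, and no other allele or agent is named. The deposited values are normalized RSEM values that are not read counts, so the depth of each library and the counting error are unknown. Values of the listed genes summed to 347211, 355094 and 350069 in the siFASRL libraries and to 333193, 334088 and 338379 in the siNC libraries. No value for FASRL itself was analysed here, so the extent of the knockdown in these libraries was not measured. The paper reports a separate check of knockdown efficiency in both cell lines. Of 8842 listed genes, 8144 reached a value of 1 in 3 or more HepG2 libraries and were tested. The list is not a full transcriptome, because genes with a small decrease in HepG2 are nearly absent from it. Among 6367 genes whose mean reached 5, only 6 had an effect between -0.179 and -0.02 on the log2 scale, and every share below refers to the listed genes.

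FASRL knockdown changed 847 of the 8144 tested genes (10.4%) past the threshold, which was a limma adjusted p under 0.05 (two-sided) together with a log2 fold change of 1 or more in either direction. Of these, 294 genes were higher (3.61% of those tested) and 553 were lower (6.79%). The log2 fold change was taken on log2(value + 1), so changes of genes near 0 look smaller than they are. In all 847 genes the 3 siFASRL values lay on one side of the 3 siNC values, as they did in 7295 of the tested genes (89.6%). Separation of the groups therefore says little here, and the size of a change carries more. A two-sided exact permutation test of 1 gene cannot go below p = 0.1 with 3 values against 3. The largest limma adjusted p among the 847 genes was 1.15e-03. Nothing in the labels says that the replicates are separate cultures, so p-values measure only the spread between these samples, which may be technical. The median log2 fold change of all tested genes was 0.10. It was 0.05 under quantile normalization, with 384 genes higher and 433 lower, and 0.20 when effects were centred on the nearly empty interval, with 394 higher and 432 lower. The excess of lower genes thus shrank under both scalings, as the higher share of genes past the threshold went from 34.7% to 47% and 47.7%.

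The largest increases among genes with a mean of at least 5 included secreted proteins, namely the cytokine IL6, the matrix protease MMP3, the matricellular protein CYR61, the mucosal peptide TFF1 and the laminin-related protein NTN4. MMP3 had values of 0.33, 0.4 and 0.36 in siNC and 20.8, 21.2 and 19.1 in siFASRL, which gives a log2 fold change of 3.97 with a standard error of 0.059 (limma adjusted p = 3.24e-10). TFF1 went from 1.47 ± 0.61 to 15.6 ± 2.85 (SD, n = 3), and its 3 siNC values of 0.95, 1.31 and 2.14 were spread more widely in proportion than those of MMP3. The scaffold protein AKAP12, the metallothionein MT2A, the ERK phosphatase DUSP4, the actin regulator RND3 and the junction protein ESAM completed the 10 genes with the largest increase. Decreases were led by the ribosomal protein RPLP0 and by PGC, the precursor of a gastric aspartic protease. PGC had values of 63.5, 60.2 and 58.7 in siNC and 6.87, 5.73 and 5.83 in siFASRL, which gives a log2 fold change of -3.12 with a standard error of 0.072 (limma adjusted p = 4.87e-09). Other genes with the largest decreases were APOC3, HAMP, PLA2G2A, SULT2A1, TM9SF1, PRSS8 and FABP1. Of these, APOC3, HAMP, SULT2A1 and FABP1 (a fatty acid binding protein that fell from 16.7 ± 4.13 to 2.09 ± 0.35 (SD, n = 3)) are best known from hepatocytes, PLA2G2A is a secreted phospholipase, TM9SF1 a membrane protein and PRSS8 a membrane-anchored serine protease.

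**Figure D1:**
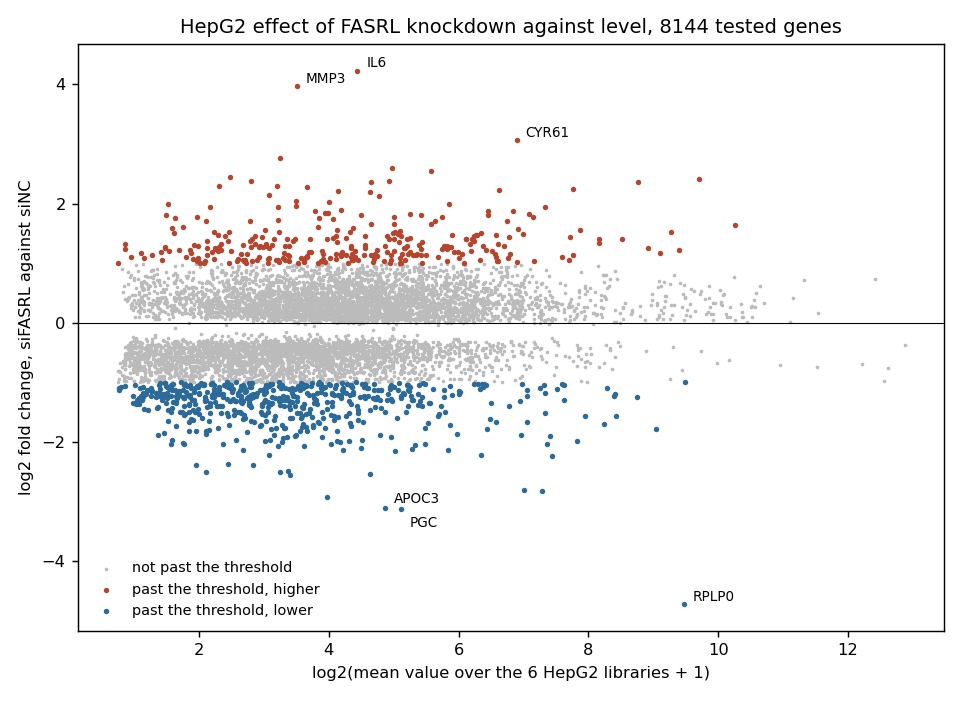
Each point is 1 of 8144 tested genes, with log2(mean value over the 6 HepG2 libraries + 1) on the horizontal axis and the log2 fold change of siFASRL against siNC on the vertical axis. The 294 genes higher and 553 lower past the threshold are coloured, the 3 genes with the largest change in each direction are named, and a band just below 0 is almost empty, between -0.179 and -0.02 for genes with a mean of at least 5.

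Hepatocytes make most plasma proteins, build lipoproteins, synthesize bile acids, and break down drugs and amino acids. This programme is kept up by a network of transcription factors, among them HNF4A, the FOXA and C/EBP proteins and nuclear receptors such as NR1H4 (FXR). Liver cells also answer cytokines of the IL6 type with acute phase proteins, and growth factor signals run through ERK and AP-1.

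HepG2 cells expressed the hepatocyte programme under siNC, and most of its markers were lower after FASRL knockdown. Of 21 hepatocyte and fetal liver markers, 18 were tested, 8 fell past the threshold and 0 rose, with a median log2 fold change of -0.99 against 0.10 over all tested genes. Their summed value was 5613 under siNC and 3059 under siFASRL, which is 54.5%. Albumin (ALB), the main plasma protein, had values of 851, 805 and 789.8 in siNC and 233, 231 and 241 in siFASRL, so that all siFASRL libraries were far below all siNC libraries (log2 fold change -1.79 with a standard error of 0.056, limma adjusted p = 2.14e-08). AFP, the fetal counterpart of albumin, fell from 605 ± 33.4 to 254 ± 7.8 (SD, n = 3), and the iron carrier TF fell from 462 ± 33.8 to 141 ± 14.8 (SD, n = 3). The thyroid hormone carrier TTR (-1.35 on the log2 scale), the growth factor IGF2 (-1.19) and the apolipoproteins APOA1 (-1.90) and APOC3 (-3.11) also fell. HNF4A fell too (-1.05), although not past the threshold with effects centred on the nearly empty interval (-0.95). SERPINA1 (alpha-1 antitrypsin) was the most abundant marker, at 1435, 1432 and 1310.3 in siNC and 938, 885 and 896 in siFASRL, and its log2 fold change of -0.62 did not reach the threshold. The same held for the fibrinogen chains FGA (-0.65) and FGG (-0.49), the retinol carrier RBP4 (-0.84), FOXA2 (-0.46) and DLK1 (-0.70).

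APOB, the protein of very-low-density lipoprotein (means of 315 under siNC and 158 under siFASRL), and the fetal surface protein GPC3 (334 and 167) lay next to the threshold and passed it under quantile normalization, at -1.08 and -1.10. APOA2 was the single marker of the 18 with a higher mean after knockdown, which went from 629.7 ± 57.1 to 757 ± 65.95 (SD, n = 3). Its log2 fold change of 0.27 became -0.039 under quantile normalization. In bulk libraries, fewer cells of a type and less RNA per cell cannot be told apart.

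Markers of other liver cell types were checked beside the hepatocyte markers. Of 23 such markers, 12 had values and 10 were tested, 2 were higher and 2 lower past the threshold, and the median log2 fold change was -0.47. Their summed value was 165% of siNC under siFASRL, and the most abundant gene was the cholangiocyte keratin KRT7. KRT7 rose from 338 ± 12.8 to 761 ± 13.7 (SD, n = 3) and KRT19 from 122 ± 20.5 to 261 ± 23.6 (SD, n = 3), while the cholangiocyte markers SOX9 (means of 34.2 under siNC and 25.6 under siFASRL) and EPCAM (31.5 and 15.3) did not pass the threshold. Neither keratin call held throughout, since KRT7 reached 0.94 under quantile normalization and KRT19 0.98 without siNC replicate 3. The collagen COL3A1 fell from 31.4 ± 1.05 to 10.3 ± 0.75 (SD, n = 3) and the proteoglycan LUM from 14.4 ± 0.37 to 4.72 ± 0.38 (SD, n = 3), while COL1A1 (-0.34) and PDGFRB (-0.54) did not pass. The endothelial marker VWF was at 0.1 under siNC and 0.03 under siFASRL and was not tested. Among leukocyte markers LYZ had a log2 fold change of -0.83 and CD68 of 0.11, and PTPRC, CD3E and CD14 were not analysed here. The part of these markers in the hepatocyte result was not tested.

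The list of secreted plasma proteins contains ALB, SERPINA1, TF and other markers given above, so its result partly repeats theirs. Of 91 genes, 60 were tested, 25 fell, 3 rose and 32 did not pass, with a median of -0.85. The summed value of the list was 7351 ± 395 (SD, n = 3) under siNC and 4822 ± 9 (SD, n = 3) under siFASRL. Carriers were lowest, with 8 of 14 lower and a sum at 37.6% of siNC. The hemoglobin carrier HP (haptoglobin) fell from 62.1 ± 5.68 to 13.5 ± 1.26 (SD, n = 3). Protease inhibitors had 7 of 13 lower, led by the plasmin inhibitor SERPINF2, which fell from 71.05 ± 5.72 to 16.6 ± 0.41 (SD, n = 3). Complement proteins had 5 of 11 lower, and coagulation factors only 2 of 13, although all 13 coagulation factors had a log2 fold change below 0. Hormones and their binding proteins went both ways, with 3 higher and 3 lower of 9 and a sum at 135% of siNC. HAMP (hepcidin), the liver hormone that limits iron uptake, had values of 271, 279 and 271 in siNC and 40.6, 36.5 and 36.1 in siFASRL, and its siFASRL mean was 13.8% of siNC. IGFBP1, a binding protein for insulin-like growth factors that hepatocytes secrete, rose from 141 ± 24.2 to 726 ± 73.9 (SD, n = 3) (log2 fold change 2.37, limma adjusted p = 2.03e-07). IGFBP3 rose from 288 ± 26.8 to 682 ± 28.1 (SD, n = 3), so the 2 binding proteins rose where the ligand IGF2 fell. The relative IGFBP4 (log2 fold change 1.65), named after its values were seen, was the other plasma protein of this list that rose.

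Lipoproteins carry lipid from the liver, and 6 of 24 tested genes of apolipoproteins and lipoprotein handling fell while 0 rose, with a median of -0.58. All 6 were apolipoproteins or took part in particle assembly, and none of the 9 tested receptors passed the threshold. APOC3 and APOA1 are also counted among the hepatocyte markers above. APOC3, an inhibitor of lipoprotein lipase, fell from 51.1 ± 3.17 to 5.04 ± 0.73 (SD, n = 3). APOA5, which promotes triglyceride clearance, had values of 5.19, 6.29 and 5.05 in siNC and 0.33, 0.3 and 0.12 in siFASRL and so was close to 0 after knockdown. APOA1, the main protein of high-density lipoprotein, had values of 264, 309 and 233 in siNC and 73.2, 68.7 and 70.04 in siFASRL. APOH, a phospholipid-binding plasma protein, fell from 195 ± 9.49 to 51.98 ± 3.13 (SD, n = 3).

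Bile acid genes had the lowest median of the 29 lists, -1.06 over 14 tested members, with 7 lower and 0 higher. All 4 tested regulators fell, with a median of -1.94. NR1H4, the nuclear receptor that senses bile acids, had values of 12.6, 10.5 and 9.87 in siNC and 1.34, 1.22 and 1.26 in siFASRL (log2 fold change -2.39 with a standard error of 0.083, limma adjusted p = 2.85e-08). Its target NR0B2 (SHP), a repressor of bile acid synthesis, fell from 15.9 ± 1.81 to 4.96 ± 0.82 (SD, n = 3). KLB, the co-receptor through which the gut hormone FGF19 acts on hepatocytes, fell from 8.11 ± 0.57 to 0.76 ± 0.02 (SD, n = 3), and FGFR4 (named after its value was seen), the receptor it works with, had a log2 fold change of -1.20. CYP27A1, a sterol hydroxylase of the alternative synthesis pathway, fell from 26.1 ± 3.42 to 6.69 ± 0.54 (SD, n = 3), and the organic anion transporter SLCO2B1 from 4.46 ± 0.19 to 0.33 ± 0.11 (SD, n = 3). HSD17B4, a peroxisomal enzyme and the most abundant member, did not pass (-0.63). NR1H4, NR0B2 and KLB thus fell together with a synthesis enzyme, in cells where the rate-limiting CYP7A1 was not analysed here.

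Among hepatocyte transcription factors the changes were mixed. Of 34 tested, 7 fell, 3 rose and 24 did not pass, with a median of -0.46. NR1H4 and NR0B2, given above with the bile acid genes, are among those that fell and are counted in both lists. CREB3L3, a membrane-bound factor that drives HAMP and APOA5 in liver, fell from 6.6 ± 0.92 to 1.21 ± 0.09 (SD, n = 3). CEBPD and CEBPB, the C/EBP factors of the acute phase response, rose. CEBPD had values of 27.8, 44.05 and 28.7 in siNC and 58.3, 95.3 and 94.4 in siFASRL, and CEBPB had values of 52.1, 76.5 and 50.04 in siNC and 93.4, 149 and 148 in siFASRL. In both genes siFASRL replicate 1 was the lowest of its group and siNC replicate 2 the highest of its own, without overlap of the groups, and CEBPB (log2 fold change 1.11) was just under the threshold under quantile normalization (0.96), without siFASRL replicate 2 (0.99) and without siNC replicate 3 (0.998). CEBPA, which is linked to mature hepatocytes and was named after its value was seen, fell (-1.12).

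Of 39 tested genes of drug metabolism, 14 fell, 1 rose and 24 did not pass, with a median of -0.78. SULT2A1, which sulfates steroids and bile acids, had values of 16.2, 17.5 and 17.4 in siNC and 1.61, 1.93 and 2.77 in siFASRL. The alcohol dehydrogenase ADH6 fell from 4.31 ± 0.49 to 0.9 ± 0.2 (SD, n = 3), the fatty acid hydroxylase CYP4F11 from 3.22 ± 0.29 to 0.53 ± 0.14 (SD, n = 3) and the monooxygenase FMO5 from 7.51 ± 0.71 to 2.08 ± 0.35 (SD, n = 3). AKR1C1, an aldo-keto reductase and the most abundant member, fell from 472 ± 11.2 to 201 ± 19.7 (SD, n = 3), although its close relatives could share reads with it. Cytochrome P450 genes had 4 of 9 lower and conjugating enzymes 5 of 21. Of 46 tested genes of amino acid breakdown and the urea cycle, 10 fell, 1 rose and 35 did not pass, with a median of -0.63 and a sum at 83.9% of siNC. AGXT, a peroxisomal transaminase, fell from 3.3 ± 0.89 to 0.18 ± 0.09 (SD, n = 3). HAAO of the tryptophan pathway fell from 8.89 ± 0.21 to 2.81 ± 0.36 (SD, n = 3). NAGS, which makes the activator of the urea cycle, went the other way and rose from 1.42 ± 0.24 to 5.26 ± 0.34 (SD, n = 3), and KYNU, the most abundant member, had a log2 fold change of 0.79 without passing the threshold.

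Cytokines and chemokines went both ways. Of 61 genes, 24 were tested, 4 rose, 4 fell and 16 did not pass, and the median of -0.43 turned to 0.18 when only genes with values of at least 5 in at least 3 libraries were kept. IL6, the main inducer of acute phase proteins, had a log2 fold change of 4.23. By the ratio of means, MMP3 (56.1) rose more than IL6 (33.6), so their order depends on the pseudocount. IL11, a cytokine of the same family, had values of 5, 6.09 and 4.72 in siNC and 25.4, 29.2 and 29.5 in siFASRL (log2 fold change 2.21 with a standard error of 0.091, limma adjusted p = 6.50e-08). CXCL8, a neutrophil chemokine counted here among the interleukins, rose from 2.79 ± 0.13 to 8.94 ± 1.81 (SD, n = 3). CSF1, a growth factor of macrophages named after its value was seen, was the other member to rise (1.07). CX3CL1, a membrane-bound chemokine, fell from 14.4 ± 0.91 to 2.87 ± 0.15 (SD, n = 3), and the chemokines CCL2 (-1.36) and CCL28 (-1.05) and the TNF family member TNFSF12 (-1.14), all named after their values were seen, fell as well. The interleukin group, which here includes CXCL8 and CSF1, had 4 of 16 higher, 1 lower and a median of -0.05, and the chemokine group had 3 of 8 lower and a median of -0.92. IL32, the most abundant member, had a log2 fold change of 0.24.

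Of 46 tested cytokine receptors and signal transducers, 4 rose and 4 fell, with a median of 0.27. The receptor TNFRSF12A, which binds TWEAK, rose from 40.4 ± 4.62 to 113 ± 12.9 (SD, n = 3) and was the most abundant member. NFKBIB, an inhibitor of NF-κB, rose from 6.06 ± 1.11 to 20.4 ± 3.22 (SD, n = 3). TNFRSF19 fell from 21.9 ± 2.01 to 7.47 ± 0.36 (SD, n = 3), and IL17RB, a receptor for IL-25, from 16.7 ± 1.01 to 5.86 ± 0.42 (SD, n = 3). Receptors had 4 of 22 lower and 1 higher, whereas the 7 tested inhibitors had 2 higher and 0 lower and a median of 0.69. SOCS3, an inhibitor of IL6 signalling named after its values were seen, was the other inhibitor that rose (1.24), and the kinases and factors had 1 of 17 higher.

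Metalloproteases and their inhibitors had 5 of 22 tested members higher and 3 lower, with a median of -0.26. MMP3 (stromelysin) was close to 0 under siNC and reached a mean of 20.4 under siFASRL. ADAMTS1, a secreted protease that cleaves proteoglycans, had values of 4.93, 5.37 and 5 in siNC and 15.1, 14.9 and 15.5 in siFASRL, and ADAM19 rose from 1.31 ± 0.18 to 4.65 ± 0.18 (SD, n = 3). The sheddase ADAM9 had values of 81.9, 70.01 and 76.2 in siNC and 25.9, 23.99 and 24.9 in siFASRL (log2 fold change -1.57), so that it was the most abundant of the 3 members that fell. TIMP1, the most abundant member and a general inhibitor of matrix metalloproteases, had a log2 fold change of 0.39 and did not pass. The collagenase MMP1 also passed (1.24), with means of 0.08 and 1.56, and was named after its values were seen.

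Serine, cysteine and aspartic proteases and serpins had 3 of 41 tested members higher and 5 lower, with a median of -0.41. PRSS8 (prostasin) had values of 15.01, 15.3 and 15.1 in siNC and 1.77, 1.7 and 2.01 in siFASRL, and the membrane serine protease HPN (hepsin) fell from 15.3 ± 1.89 to 5.57 ± 0.74 (SD, n = 3). Of 12 tested membrane serine proteases and their inhibitors, 3 fell and 0 rose. Serpins outside plasma went in different directions. SERPINE2, an inhibitor of thrombin and plasminogen activators, rose from 15.03 ± 0.39 to 42.7 ± 0.78 (SD, n = 3), and SERPINB5 (maspin) fell from 37.1 ± 1.61 to 13.3 ± 0.61 (SD, n = 3). None of 13 calpain and caspase genes passed, with a median of 0.17.

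**Figure D2:**
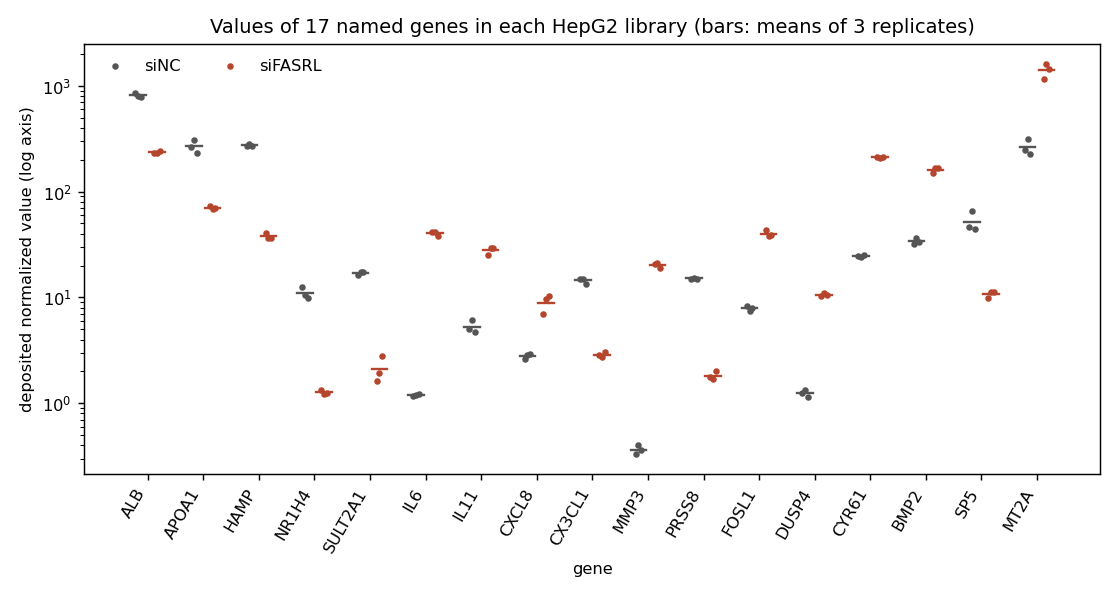
Points are the deposited normalized values (log axis) of 17 named genes in each HepG2 library, 3 siNC and 3 siFASRL, and bars are group means. The 6 genes ALB, APOA1, HAMP, NR1H4, SULT2A1 and CX3CL1 lie lower in all siFASRL libraries, as do PRSS8 and SP5, while MMP3 goes from a mean of 0.36 to 20.4.

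AP-1 is a family of dimeric factors made of FOS, JUN and related proteins that growth factors and cytokines induce within minutes, and other immediate early genes respond with it. Of 30 tested AP-1 and immediate early factors, 11 rose and 0 fell, with a median of 0.85 against 0.10 over all tested genes, the highest among the 29 lists. FOSL1 had values of 8.27, 7.48 and 7.87 in siNC and 43.04, 37.7 and 38.9 in siFASRL (log2 fold change 2.20 with a standard error of 0.067, limma adjusted p = 1.91e-08). The orphan receptor NR4A3 rose from 3.6 ± 0.28 to 16.9 ± 0.19 (SD, n = 3), the antiproliferative factor BTG2 from 9.37 ± 0.86 to 30.1 ± 0.96 (SD, n = 3) and the zinc finger factor EGR1 from 3.82 ± 0.2 to 12.98 ± 1.18 (SD, n = 3). IER3, the most abundant member, did not pass (0.86). JUN, a partner of FOSL1 named after its values were seen, rose from 12.7 ± 1.76 to 32.6 ± 2.95 (SD, n = 3), while FOS itself had a log2 fold change of 0.36.

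Promoters of higher genes were searched for AP-1 sites, since the AP-1 factors rose. Windows of RefSeq (GRCh38.p14) from 250 bases before to 50 bases after the annotated start were searched, and the 250 bases before the start are printed. A window was available for 6602 tested genes, 414 of them lower and 225 higher. The letters TGACTCA on either strand occurred in 15 of 225 higher promoters (6.67%), 10 of 414 lower ones (2.42%), 3.21% of all tested genes and 4.92% of all 27305 promoters in the table. MT2A, IL11 and F3 are 3 named genes that rose and hold such a match, which is in capitals below. They serve as examples and not as a ranking by increase. The window of MT2A is chr16:56608334-56608583 on the plus strand, that of IL11 chr19:55370464-55370713 on the minus strand and that of F3 chr1:94541760-94542009 on the minus strand. The match starts 104 bases before the start of MT2A, 96 before that of IL11 and 210 before that of F3.
MT2A: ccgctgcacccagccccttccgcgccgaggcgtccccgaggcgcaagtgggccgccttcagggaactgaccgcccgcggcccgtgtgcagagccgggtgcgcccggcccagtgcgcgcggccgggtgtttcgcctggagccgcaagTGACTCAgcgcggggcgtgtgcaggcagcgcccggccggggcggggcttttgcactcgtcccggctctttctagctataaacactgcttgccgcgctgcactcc
IL11: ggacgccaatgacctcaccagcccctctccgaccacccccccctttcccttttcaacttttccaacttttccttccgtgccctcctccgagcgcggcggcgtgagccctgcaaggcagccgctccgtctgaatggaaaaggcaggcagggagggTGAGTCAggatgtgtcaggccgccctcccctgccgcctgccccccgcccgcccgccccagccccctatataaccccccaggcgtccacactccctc
F3: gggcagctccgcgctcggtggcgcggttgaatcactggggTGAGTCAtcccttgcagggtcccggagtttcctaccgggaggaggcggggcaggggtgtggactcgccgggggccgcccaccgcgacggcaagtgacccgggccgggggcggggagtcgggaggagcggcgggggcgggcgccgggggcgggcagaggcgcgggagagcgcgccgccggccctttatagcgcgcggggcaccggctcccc

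The cAMP response element TGACGTCA differs from the AP-1 letters by an added base, and no match of one is a match of the other. It occurred in 12 higher promoters (5.33%) and in 1 lower promoter (0.242%), against 3.65% of tested genes and 1.98% of all promoters. TATAAA was found in 12.9% of higher and 8.94% of lower promoters, above the 6.01% of tested genes and around the 12% of all promoters. Shares of the TEAD letters GGAATG were 10.2% of higher, 10.9% of lower and 10.7% of tested genes, with 14% of all promoters. CACGTG, an E-box that USF factors bind, had 10.2%, 9.42% and 10%, with 7.43% of all promoters. CCAAT had 30.7%, 37.2% and 36.4% (35.7% of all promoters), and CAAAG, a core of HNF4 sites, had 40%, 45.4% and 38.4% (47.6% of all). The sterol response letters TCACNCCAC had 0.889%, 1.69% and 1.14% (1.15% of all). A match describes these letters in this window and is not a bound site.

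**Figure D3:**
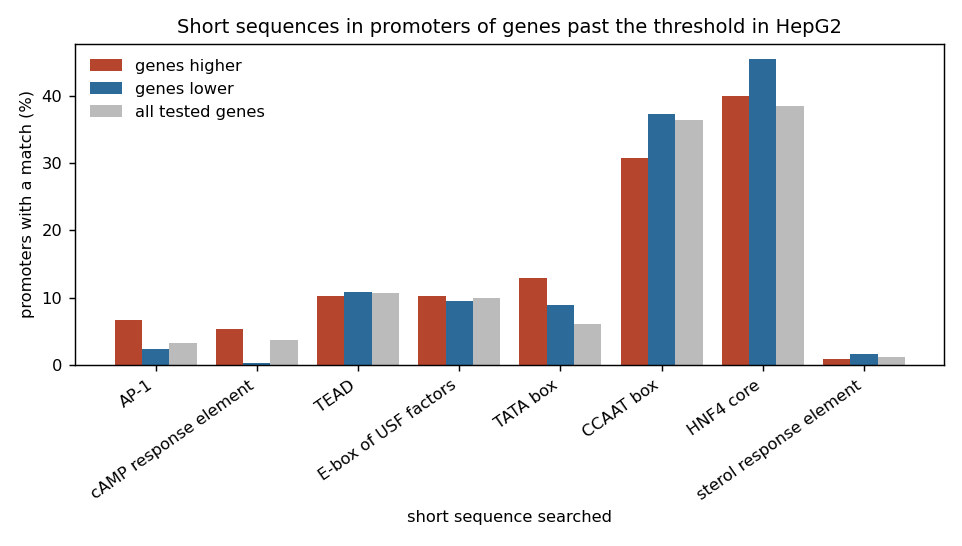
Bars give the percentage of promoters with at least 1 match on either strand, for genes higher (225), genes lower (414) and all tested genes with a promoter (6602). The AP-1 letters were in 6.67% of higher and 2.42% of lower promoters, and the cAMP response element in 5.33% and 0.242%.

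ERK signalling carries growth factor signals from receptors to the nucleus and induces its own inhibitors. Of 54 tested genes, 10 rose and 4 fell, with a median of 0.51. EREG (epiregulin), a ligand of the EGF receptor, had values of 3.52, 3.18 and 3.62 in siNC and 15.8, 17.6 and 18.3 in siFASRL, and 4 of 11 tested ligands rose. The ligand AREG, named after its values were seen, had a log2 fold change of 1.85. Phosphatases that switch ERK off went both ways, as DUSP4 rose from 1.24 ± 0.09 to 10.6 ± 0.35 (SD, n = 3) and DUSP5 from 9.18 ± 1 to 43.5 ± 0.85 (SD, n = 3), while DUSP9 fell from 91.9 ± 12.2 to 20.2 ± 1.31 (SD, n = 3). Among receptors 0 of 12 rose and 2 fell, with a median of 0.35, and none of 6 kinases passed. Over all tested genes 3.61% were higher and 6.79% lower, so counts this small say little about receptors or kinases. The genes that rose were 4 of 11 ligands, 4 of 16 feedback inhibitors and 2 of 10 ETS target genes.

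YAP and TEAD targets respond to cell shape and contact. Of 32 tested genes of this list, 6 rose and 0 fell, with a median of 0.41, and all 6 were among the 22 targets, while none of 10 pathway genes passed. CYR61 had values of 24.6, 23.96 and 24.9 in siNC and 214, 209 and 211 in siFASRL (log2 fold change 3.06 with a standard error of 0.052, limma adjusted p = 6.79e-10). F3 (tissue factor) rose from 5.67 ± 0.62 to 22.97 ± 0.75 (SD, n = 3) and the ectonucleotidase NT5E from 3.32 ± 0.13 to 13.3 ± 0.46 (SD, n = 3). The known target CTGF, named after its values were seen, did not follow CYR61 and had a log2 fold change of -0.69, and ANKRD1 had 0.05.

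Of 40 tested genes of TGF-beta, activin and BMP signalling, 7 rose and 3 fell, with a median of 0.12. Ligands made up 4 of the 7. BMP2 had values of 31.6, 36.3 and 33.5 in siNC and 148, 166 and 167 in siFASRL (log2 fold change 2.22, limma adjusted p = 2.60e-08). The BMP antagonist-like protein FSTL1 rose from 58.1 ± 2.2 to 159 ± 2.2 (SD, n = 3), whereas the inhibin subunit INHA fell from 21.4 ± 1.41 to 7.91 ± 0.3 (SD, n = 3). ID2, an inhibitor of helix-loop-helix factors that BMP signals induce, fell from 200.3 ± 10.7 to 62.9 ± 6.8 (SD, n = 3), so that it moved against BMP2. BMP6, an inducer of HAMP in the liver, rose (1.28) and was named after its values were seen.

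Beta-catenin is mutated to an active form in HepG2, which keeps target genes high. Of 41 tested genes of this pathway, 2 rose and 11 fell, and the median of 0.09 was close to that of all tested genes. Targets and inhibitors stood apart within the list, with 9 of 15 lower, 1 higher and a median of -1.22. The factor SP5 had values of 46.1, 65.8 and 43.8 in siNC and 9.87, 11.2 and 11.3 in siFASRL, of which siNC replicate 2 was the highest. The ammonium transporter RHBG fell from 12.6 ± 0.98 to 2.5 ± 0.27 (SD, n = 3), the Wnt deacylase NOTUM from 134 ± 20.2 to 42.7 ± 3.2 (SD, n = 3) and the receptor FZD4 from 25.6 ± 0.71 to 7.9 ± 0.13 (SD, n = 3). CTNNB1, which encodes beta-catenin, had a log2 fold change of 0.26, and none of 12 pathway genes passed. AXIN2 (log2 fold change 0.93), a target named after its values were seen, did not fall with the others.

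Cytoskeleton, adhesion and matrix genes had 10 of 84 tested members higher and 10 lower, with a median of 0.31. Actin genes had 5 of 22 higher and 0 lower. RND3, which loosens actin fibres, had values of 9, 8.93 and 8.57 in siNC and 47.5, 51.8 and 51 in siFASRL, and the tropomyosin TPM4 rose from 75.03 ± 6.74 to 359 ± 20.6 (SD, n = 3). ACTB, the most abundant member, was 1938 under siNC and 3191 under siFASRL, a log2 fold change of 0.72. Intermediate filaments had 4 higher and 1 lower of 14. VIM (vimentin), the mesenchymal filament, had values of 272, 294 and 286 in siNC and 57.8, 61.4 and 58.99 in siFASRL, so VIM fell where KRT7 and KRT19 rose. Matrix genes had 5 of 26 lower and 1 higher, and SPP1 (osteopontin) fell from 359 ± 27.5 to 90.5 ± 2.98 (SD, n = 3).

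Metallothioneins bind zinc and copper, and 3 of them were among the named genes of the list of NRF2 targets and redox enzymes. MT2A had values of 248, 312 and 228 in siNC and 1168, 1619 and 1427 in siFASRL, MT1G had 2.52, 4.99 and 2.5 in siNC and 12.3, 25.4 and 22.6 in siFASRL and MT1E had 43.7, 52.8 and 45.6 in siNC and 129, 213 and 195 in siFASRL. In each of the 3 genes siFASRL replicate 1 was the lowest of its group and still above all siNC libraries. Metallothionein genes are near-identical, so reads could be shared between them and the value of each is uncertain. Of 38 tested genes of this list, 4 rose and 7 fell, with a median of 0.16. The mitochondrial superoxide dismutase SOD2, named after its values were seen, was the fourth gene to rise (1.82). Iron and heme handling had 2 of 23 tested genes higher and 6 lower, with a median of -0.51. The lower genes include HAMP, HP and TF, already counted among the secreted plasma proteins, so this result partly repeats theirs. TFRC, the receptor that takes up transferrin, had values of 165, 161 and 158 in siNC and 402, 406 and 421 in siFASRL, while TF, its ligand, fell and FTH1, the ferritin heavy chain and the most abundant member, had a log2 fold change of 0.73.

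Cytosolic ribosomal proteins had 2 of 58 tested members lower and 0 higher, with a median of 0.26 that was 0.02 under quantile normalization. The 2 were RPLP0 (log2 fold change -4.72) and RPL22 (-1.05, and -0.955 with effects centred on the nearly empty interval), while RPS2, the most abundant member, had 0.41. RPLP0 fell from 1363 ± 129 to 50.7 ± 3.72 (SD, n = 3), and its log2 fold change in LM3 was -3.95 (limma adjusted p = 1.57e-07). Pseudogenes of RPLP0 could share its reads, and their part in these values was not tested. Cell cycle and DNA replication genes had 2 of 63 higher and 2 lower, with a median of 0.15. The cyclin CCND3 (1.16) and its kinase CDK6 (1.14) rose, and the cyclin CCNE2 (-1.26) and the ligase LIG1 (-1.05) fell. CCND3 was just under the threshold with quantile normalization (0.998), as was LIG1 with effects centred on the nearly empty interval (-0.95). Replication genes had 19 of 24 values below 0 with a median of -0.44, mitosis genes 20 of 21 above 0 with a median of 0.27, and the most abundant gene, RRM1, had 0.15.

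Targets of p53 and inhibitors of cyclin-dependent kinases had 3 of 31 higher and 3 lower, with a median of 0.11. PMAIP1, which promotes apoptosis, and BTG2 rose (1.11 and 1.59), whereas SESN1 (-1.33) and ZMAT3 (-1.29) fell. CDKN1A (p21), the most abundant member, had -0.89 and passed only under quantile normalization (-1.004). Over all tested genes 3.61% were higher and 6.79% lower, and counts this small say little about p53 targets as a set. Interferon-stimulated and antigen presentation genes had 1 of 39 higher and 1 lower, with a median of -0.36. ISG20, an exonuclease, rose (1.07, and 0.96 without siNC replicate 3), TAPBP of the peptide loading complex fell (-1.11), and the abundant IFITM3 had 0.38. ATF4 and unfolded protein response genes had 3 of 34 higher and 2 lower, with a median of -0.38. The factors ATF5 (1.08) and CEBPB rose, as did ATF4 (1.06, named after its values were seen), whereas the serine synthesis enzyme PHGDH (-1.15) and the disulfide isomerase PDIA6 (-1.17) fell, and the abundant chaperone CALR had -0.47.

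Cholesterol synthesis and uptake had 11 of 32 tested genes lower, 0 higher and 21 not past the threshold, with a median of -0.91. MSMO1, a demethylase of the pathway, fell from 30.9 ± 0.86 to 7.07 ± 0.08 (SD, n = 3), the sterol carrier STARD4 from 12.4 ± 0.54 to 2.86 ± 0.2 (SD, n = 3) and INSIG1, which holds the SREBP factors back, from 18.4 ± 1.53 to 4.8 ± 0.7 (SD, n = 3). IDI1 (-1.66) fell too, and NPC2, the most abundant member, had -0.98 and passed under quantile normalization (-1.11). Fatty acid and triglyceride synthesis had 7 of 33 lower, 1 higher and 25 not past the threshold, with a median of -0.51. MLXIPL (ChREBP), a glucose-sensing factor, fell from 13.9 ± 0.45 to 2.59 ± 0.4 (SD, n = 3), the desaturase SCD from 264 ± 11.6 to 63.5 ± 4.84 (SD, n = 3) and the acyltransferase GPAM from 8.78 ± 0.11 to 2.88 ± 0.08 (SD, n = 3), whereas the acyl-CoA synthetase ACSL5 rose from 7.65 ± 0.75 to 21.8 ± 0.97 (SD, n = 3).

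Glucose metabolism had 5 of 31 tested genes lower and 0 higher, with a median of -0.46. The aldolase ALDOC fell from 68.2 ± 5.33 to 19.3 ± 0.74 (SD, n = 3), and the liver pyruvate kinase PKLR (-1.20), the fructose kinase KHK (-1.07) and the regulator PFKFB4 (-1.02) also fell. PKLR (-0.881) and KHK (-0.880) did not pass under quantile normalization. With effects centred on the nearly empty interval KHK (-0.967) and PFKFB4 (-0.923) did not pass, and PFKFB4 also missed the threshold without siFASRL replicate 1 (-0.996), siFASRL replicate 2 (-0.997) or siNC replicate 2 (-0.923). GAPDH, the most abundant gene of the 8144, had -0.38, which was 0.042 under quantile normalization. Oxidative phosphorylation had 3 of 37 subunits lower and 0 higher, with a median of 0.12, while 6.79% of all tested genes were lower. All 3 belong to complex I, which as a whole did not fall. Of its 16 tested subunits 11 had a log2 fold change above 0, and the median was 0.18. NDUFA2 fell from 52.9 ± 2.5 to 18.4 ± 3.62 (SD, n = 3), NDUFS7 from 36.4 ± 7.09 to 14.9 ± 3.79 (SD, n = 3) and NDUFAB1 from 89.1 ± 11.7 to 39.5 ± 6.72 (SD, n = 3), while the abundant ATP synthase subunit ATP5F1B had 0.17, and -0.13 under quantile normalization.

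**Figure D4:**
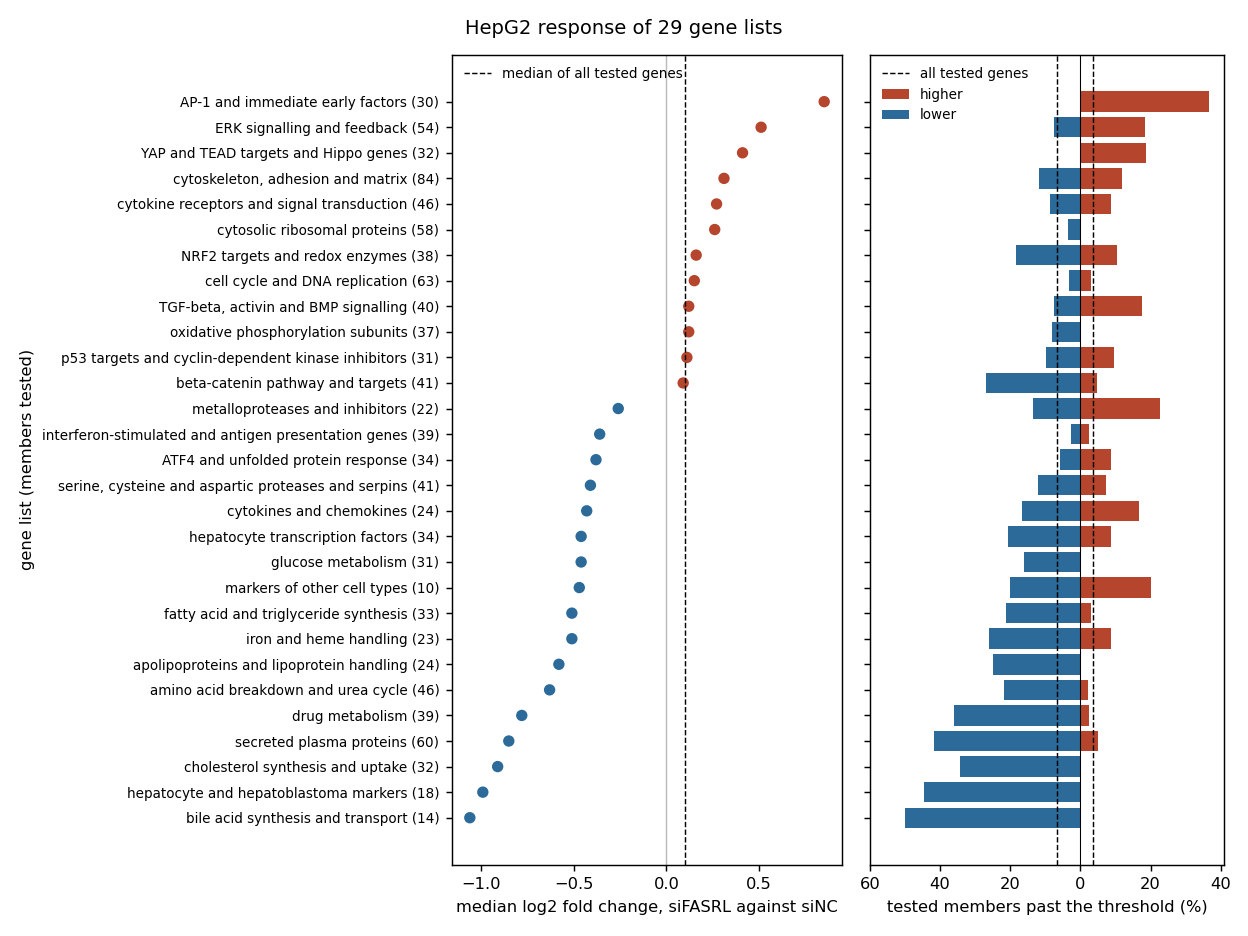
The left panel gives the median log2 fold change of siFASRL against siNC for each of 29 gene lists, with the number of tested members in brackets and the median of all tested genes, 0.10, as a dashed line. The right panel gives the percentage of tested members past the threshold, higher to the right and lower to the left, with dashed lines at 3.61% and 6.79% for all tested genes. AP-1 and immediate early factors have the highest median, 0.85, and bile acid synthesis and transport the lowest, -1.06.

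To see which HepG2 effects differed from those in LM3, the interaction of cell line and treatment was tested with limma in all 12 libraries. The effect differed by at least 1 on the log2 scale, with a limma adjusted p under 0.05, in 401 of 8285 genes (4.84%). Among the genes past the threshold in HepG2, 101 of the 294 higher genes (34.4%) and 176 of the 553 lower genes (31.8%) were of this kind. These shares come from genes chosen for a large HepG2 effect, which favours a difference of the same sign. Only 58 of the 101 and 31 of the 176 genes had values high enough to be tested within LM3. Of all 553 lower genes 33.3% had an LM3 siNC mean under 1, and of all 294 higher genes 16%, against 9.59% of all tested genes. For ALB it was 0.36, for NR1H4 0.14 and for HAMP 0.08, so a decrease could hardly be seen in LM3. MMP3 was at 0.02 in LM3 siNC and at 0 in LM3 siFASRL, too low to be tested within LM3. Its difference of 3.99 therefore restates its HepG2 log2 fold change of 3.97 and is no separate result about the lines. MMP3, unlike the hepatocyte genes, had a siNC mean under 1 in both lines. Effects that did not differ detectably between the lines included FOSL1 (difference 0.06, limma adjusted p = 0.764), TNFRSF12A (-0.02, limma adjusted p = 0.911) and STARD4 (0.05, limma adjusted p = 0.77).

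**Figure D5:**
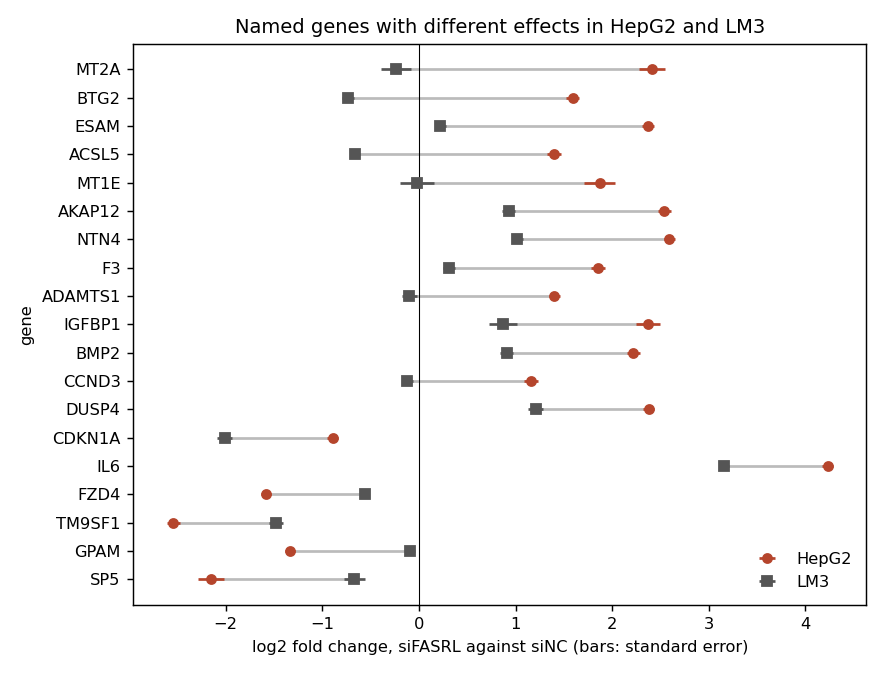
Points are log2 fold changes of siFASRL against siNC in HepG2 (circles) and LM3 (squares) for 19 named genes tested in both lines whose effects differed by at least 1, and bars are standard errors. For BTG2 and ACSL5 the HepG2 effect lies above 0 and the LM3 effect below 0. The LM3 effect of MT2A (-0.24, limma adjusted p = 0.183) was not detectably different from 0.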

How the data were processed

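RNA-seq of HepG2 was compared between 3 siFASRL and 3 siNC libraries, grouped by the cell line, treatment and replicate number in the labels. LM3 libraries were used in the interaction test, for the LM3 levels and effects set beside those of HepG2, and in 1 alternative fit. The labels name oligo(dT) selection and the BGISEQ platform. The authors filtered reads with SOAPnuke, aligned them with HISAT2 and Bowtie2 and computed expression with RSEM, without versions in the labels, and the deposited values are normalized, with the unit (FPKM or TPM) not given in the sources used here. The labels name the hg19 build, while the chromosome names in the tables are those of GRCh38, so no coordinates were taken from them. Depth is unknown and precision comes from the spread of 3 replicates. Another 6 columns that repeat LM3 values in a HepG2 table were not used, and 17 symbols turned into dates were restored. RefSeq held 8790 of the 8842 genes, and promoters came from RefSeq GRCh38.p14.

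Tests used limma 3.58.1 under R 4.3.3, two-sided, with log2(value + 1) as input and Benjamini-Hochberg adjustment over the 8144 genes that reached a value of 1 in 3 or more HepG2 libraries. The design named a count test for counts, and limma otherwise. The interaction was fitted on 12 libraries. Both fits were tested on simulated data. Tables and figures used Python 3.11.15, pandas 2.3.3, numpy 2.4.6 and matplotlib 3.10.9.

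The members and the 29 gene lists were chosen with earlier results of these data known. Named genes are the 10 genes per direction with the largest log2 fold change among those past the threshold, without overlap and with a mean of at least 5, up to 4 members per list with the largest change past the threshold, the member of each list with the highest mean, and the hepatocyte markers, 144 genes in all. Lists are described by counts and medians without a test. Alternatives were the pseudocount, the filter, median-of-ratios scaling, quantile normalization, centring, a replicate block, a mean-variance trend, a fit of all 12 libraries and leaving out each replicate.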

Additional observations from a re-analysis of the deposited data

Results flagged for a closer look

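For 19 of the 144 named genes, tested in both lines, the effect of FASRL knockdown in HepG2 differed from that in LM3 by at least 1 on the log2 scale in the limma interaction test, as it did for 401 genes in all. The HepG2 effect minus the LM3 effect was above 0 for 15 of them, a choice that leaves out genes near 0 in LM3. Over all genes tested in HepG2 that differed, 204 were above and 191 below 0. The metallothioneins MT2A (2.66) and MT1E (1.90) rose in HepG2 and had LM3 effects of -0.24 and -0.02, although their LM3 siNC means of 169 and 110.0 were not low. BTG2 (2.32) and ACSL5 (2.07) rose in HepG2 and had LM3 effects of -0.73 and -0.66. ESAM (2.15) was at 7.14 in HepG2 siNC and 42.6 in LM3 siNC, and after knockdown at 41.1 and 49.8, so that HepG2 came near the LM3 level.

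The difference was also above 0 for AKAP12 (1.61), NTN4 (1.57), F3 (1.54), ADAMTS1 (1.5), IGFBP1 (1.5), BMP2 (1.31), CCND3 (1.28), DUSP4 (1.16) and IL6 (1.07). Of these, ADAMTS1 and CCND3 had LM3 effects just below 0 (-0.10 and -0.12). CDKN1A (1.12) had a smaller decrease in HepG2 (-0.89) than in LM3 (-2.01). The difference was below 0 for SP5 (-1.47), GPAM (-1.24), TM9SF1 (-1.05) and FZD4 (-1.02), the 4 genes with larger decreases in HepG2. Groups of 3 are too small to test for single samples that stand apart.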

How the results depend on the processing

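The count of lower genes, 553, moved to 957 with a pseudocount of 0.1 while that of higher genes was 416, and that of genes whose effect differs between the lines from 401 to 664, since a smaller pseudocount enlarges changes of low genes. Under the other alternatives, which kept all replicates, higher genes lay between 258 and 394 and lower genes between 414 and 562. Differing genes were run only with the higher filter (309), median-of-ratios scaling (386) and the block. With 1 HepG2 replicate left out, higher genes ranged from 286 to 320, lower genes from 558 to 581 and differing genes from 397 to 419, and no LM3 replicate was left out. Under quantile normalization 272 of the 294 higher and 392 of the 553 lower genes were shared with the result given, and with effects centred on the nearly empty interval 294 and 432. Of the 144 named genes over all alternatives, 3 changed sign, all under quantile normalization, and none of these had passed the threshold. They were APOA2 (-0.039), GAPDH (0.042) and ATP5F1B (-0.13), and the cause was not tested. Another 17 values of named genes no longer passed and 10 newly passed, and 1836 kept their direction and side. Medians of the 29 lists moved by at least the SD of the list median between siFASRL replicates in 123 of the comparisons and not in 254.

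Blocking on the replicate number left 294 genes higher, 553 lower and 401 that differed between the lines, and no call of a named gene changed. The groups are balanced, so the block leaves each log2 fold change as it was and can act only through the p-values. The unchanged counts are therefore no separate support for the calls. Deviations of same-numbered siFASRL and siNC replicates correlated with r of 0.319, 0.371 and -0.2, so the numbers do not pair the samples, and siFASRL replicate 3 correlated best with siNC replicate 2. Unknown depth limits what can be said of genes with values near 0.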

Other observations

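Gene families were grouped by the letters that open their symbols, and those below were chosen after their values were seen. Of 11 tested HIST1 histone genes, 6 were higher past the threshold and 0 lower, with a median log2 fold change of 1.07. HIST1H1C, a linker histone, went from 49.6 ± 2.58 to 164 ± 5.35 (SD, n = 3), and HIST1H2BK from 39.8 ± 3.03 to 113 ± 3.23 (SD, n = 3). Libraries were selected with oligo(dT), so only polyadenylated histone messages count here, and histone genes are so alike that reads could be shared between them. Of 11 tested keratin genes, 5 were higher and 0 lower, with a median of 0.78. KRT17 went from 591 ± 46.6 to 1849 ± 79.5 (SD, n = 3) and was the most abundant gene that rose, although its pseudogenes could share reads.

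Solute carriers had 21 of 166 tested members lower (12.7%) and 2 higher (1.2%), with a median of -0.45. SLC38A3, a glutamine transporter of hepatocytes, had values of 13.4, 12.3 and 12.9 in siNC and 2.2, 1.81 and 1.95 in siFASRL, and SLC13A5, which takes up citrate, fell from 17.3 ± 1.04 to 4.21 ± 0.67 (SD, n = 3). Among RAB proteins of vesicle traffic, 7 of 40 were lower (17.5%) and 1 higher (2.5%), against 6.79% and 3.61% of all tested genes, with a median of 0.01, so the family as a whole was not shifted down. Genes of the small-subunit processome named UTP, 10 tested, had log2 fold changes between 0.14 and 0.98, and 0 passed the threshold. Aldehyde dehydrogenases had 15 tested members, all with log2 fold changes between -1.86 and -0.35 and 2 of them past the threshold.

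The share of lower genes was set beside level, taken as the mean over the 6 libraries. Among the 2036 genes with the lowest means 10.5% were lower past the threshold and 3.09% higher. Among the 2036 with the highest means these shares were 4.67% and 5.21%. That mean includes the siFASRL values, so a decrease by itself moves a gene towards the lowest means and an increase towards the highest. Under siNC alone the median value was 12.3 for lower genes, 9.11 for higher genes and 13.3 for all tested genes. The shares therefore cannot tell a dependence on level from the effect itself. Genes with the shortest RefSeq spans had 4.98% higher and 9.23% lower, and those with the longest 3.21% and 4.69%, so short genes passed more often in both directions.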
